A study of Homo sapiens with 7 samples.

Results

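DNA replication machinery genes were taken as 40 genes that copy the genome in every S phase, and their guide RNAs were followed through a pooled CRISPR knockout screen. The members were all guides whose target gene was on this list, which gave 160 guides, 4 for each gene, out of 19112 genes and 77441 guides. The list was made by function and not by measured values, though earlier results of these data were known when it was chosen. By role, 8 genes act in origin licensing (ORC1 to ORC6, CDC6 and CDT1), 6 form the MCM2-7 helicase core, 6 act in helicase activation (CDC45, GINS1 to GINS4 and MCM10), and 9 encode polymerase and primase subunits (POLA1, POLA2, PRIM1, PRIM2, POLD1, POLD2, POLD3, POLE and POLE2). Another 6 encode the sliding clamp and its loader (PCNA and RFC1 to RFC5), 2 mature Okazaki fragments (FEN1 and LIG1) and 3 encode replication protein A (RPA1 to RPA3).

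The screen used HCT116, an established line from a human colorectal carcinoma, as a single clone that carried a GFP splicing reporter built around OGT intron 4 at the AAVS1 locus. All 3 input and all 3 sorted libraries came from cells that had received the Brunello knockout library at a multiplicity of infection of 0.3, puromycin for 8 days from day 2, and 1 µM thiamet G (TG), which blocks the enzyme that removes O-GlcNAc, for 24 hr on day 9 with a replenishment every 12 hr. Input libraries were from unsorted cells, sorted libraries from the cells with high GFP at the end of day 10, and 1 further library, without TG, measured the guide pool. The record describes that library as unselected cells and the methods of the study as the original DNA preparation, so its source is not settled. Depth was 27.8 to 29.5 M reads in input, 26.2 to 31.0 M in sorted and 35.8 M in the pool library, and 1 replicate was a pilot at 100-fold coverage where the other two were at 300-fold. The deposited values carry no replicate number, so libraries are numbered here by their place in the values, and the pilot cannot be told from the other two. Guide counts hold no transcript, so the identity of the cell line could not be checked against marker genes.

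Replication begins when the origin recognition complex, with CDC6 and CDT1, loads the ring-shaped MCM helicase onto DNA. CDC45 and the GINS complex then join the ring to give an active helicase, DNA polymerase α and its primase lay down primers, and polymerases δ and ε extend them while held to DNA by PCNA, which the RFC complex loads. Cells that cannot copy their DNA stop dividing, so a guide against a gene of this kind is usually lost from a growing population, and guide loss between the pool and unsorted cells is the usual readout of a gene needed for growth.

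Guide sequences are printed for the 3 genes whose guides were lowest in input cells relative to the pool (PCNA, ORC1 and RFC1) and the 3 whose guides differed most from each other (ORC1, CDC45 and ORC5), since those guides carry the results on loss and on disagreement between guides. Coordinates are those of the 20-base match in GRCh38, exons are those of the MANE Select transcript in GENCODE 44, and guides are numbered along the coding sequence. All 20 guides shown cut in coding sequence. Capitals mark the PAM, the 3 genomic bases next to the target that Cas9 requires.
PCNA guide 1, chr20:5119700-5119719 (plus strand), exon 1: gctggagctaatatcccagcAGG
PCNA guide 2, chr20:5119597-5119616 (plus strand), exon 1: tggccaggttgcggtcgcagCGG
PCNA guide 3, chr20:5118773-5118792 (plus strand), exon 2: tgcttcaaatactagcgccaAGG
PCNA guide 4, chr20:5117612-5117631 (plus strand), exon 4: atacgtgcaaattcaccagaAGG
RFC1 guide 1, chr4:39316917-39316936 (minus strand), exon 10: gggctccaaagaaataccaaAGG
RFC1 guide 2, chr4:39312750-39312769 (minus strand), exon 11: cagtccaagagtgataaggtGGG
RFC1 guide 3, chr4:39304910-39304929 (minus strand), exon 15: ggagttgggatacagctacgTGG
RFC1 guide 4, chr4:39303070-39303089 (minus strand), exon 16: gcaggcaatgaggataggggAGG
ORC1 guide 1, chr1:52397711-52397730 (minus strand), exon 4: ctgtgacagcaacattaatgCGG
ORC1 guide 2, chr1:52393503-52393522 (minus strand), exon 6: acacttacccctatcagtggGGG
ORC1 guide 3, chr1:52385912-52385931 (plus strand), exon 9: atctgaggagcggcacaacgTGG
ORC1 guide 4, chr1:52385163-52385182 (minus strand), exon 10: aactccttgaccataccggaGGG
ORC5 guide 1, chr7:104200933-104200952 (plus strand), exon 3: acacaattcacaaacacatgTGG
ORC5 guide 2, chr7:104195137-104195156 (plus strand), exon 5: gtttacctatgctgtaatcaGGG
ORC5 guide 3, chr7:104188296-104188315 (plus strand), exon 6: tccaagaagaatgttaatgtAGG
ORC5 guide 4, chr7:104184138-104184157 (minus strand), exon 7: tcctaaatattgtgaacccgTGG
CDC45 guide 1, chr22:19480973-19480992 (minus strand), exon 3: gaaccagcgtatattgcacgTGG
CDC45 guide 2, chr22:19482806-19482825 (plus strand), exon 4: caatgtatacaacgatacccAGG
CDC45 guide 3, chr22:19483984-19484003 (plus strand), exon 5: gaagcgcacacggttagaagAGG
CDC45 guide 4, chr22:19499109-19499128 (minus strand), exon 9: ctggtctgttagtccaacgaTGG

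Each of the 160 member guides had 1 perfect site in the genome. Of these, 159 lay in coding sequence, between 5.23% and 76.2% along it with a median of 35.3%, and the other, POLA2 guide 1, lay in an intron of the MANE transcript. Reads per member guide in the pool ran from 2 to 1163. The guide with 2 reads was FEN1 guide 1, and its ratio therefore has almost no depth behind it.

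Whether loss of replication genes cost cells their place in the unsorted population was asked by setting input libraries against the guide pool. Guides against 10 of the 40 genes (25.0%) fell in input cells, against 4.41% of all genes tested, and none of the 40 rose, against 1.25% of all genes. The 10 genes were ORC1, CDC6, CDT1, CDC45, POLA1, POLA2, PRIM1, POLD3, POLE and PCNA. The gene value was the mean over its 4 guides of log2(normalised count + 1), and the test was limma over all genes with Benjamini-Hochberg adjustment at 0.05. Since the pool was a single library, it was assumed to vary like the input libraries. The p-values set each difference against the spread among the 3 input libraries, which limma moderated toward the trend over all genes. The SEs carry the same moderated spread, so neither measures a gene's own 3 input libraries alone. The median log2 ratio of input over pool was -0.35 for the 40 genes and -0.06 for all genes, while the non-targeting guides stood at 0.27. By the direction of the libraries alone, 26 genes (65.0%) were below the pool in all 3 input libraries, against 40.0% of all genes, and 7 (17.5%) were above it in all 3, against 26.3%. Call counts depended on the libraries used, with 17 members lower without input library 1 (2748 of all genes) and 7 without input library 2 (406 of all genes). They also depended on the tool. On reads summed over guides, edgeR called 13 lower (1034 of all genes) and DESeq2 12 (1037 of all genes). Robust rank aggregation (RRA) on the same guides called 0 of the 40, against 0.131% of all genes (25 called). By RRA, 14 of the 40 were below an unadjusted p of 0.05, against 6.15% of all genes.

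**Figure D1:**
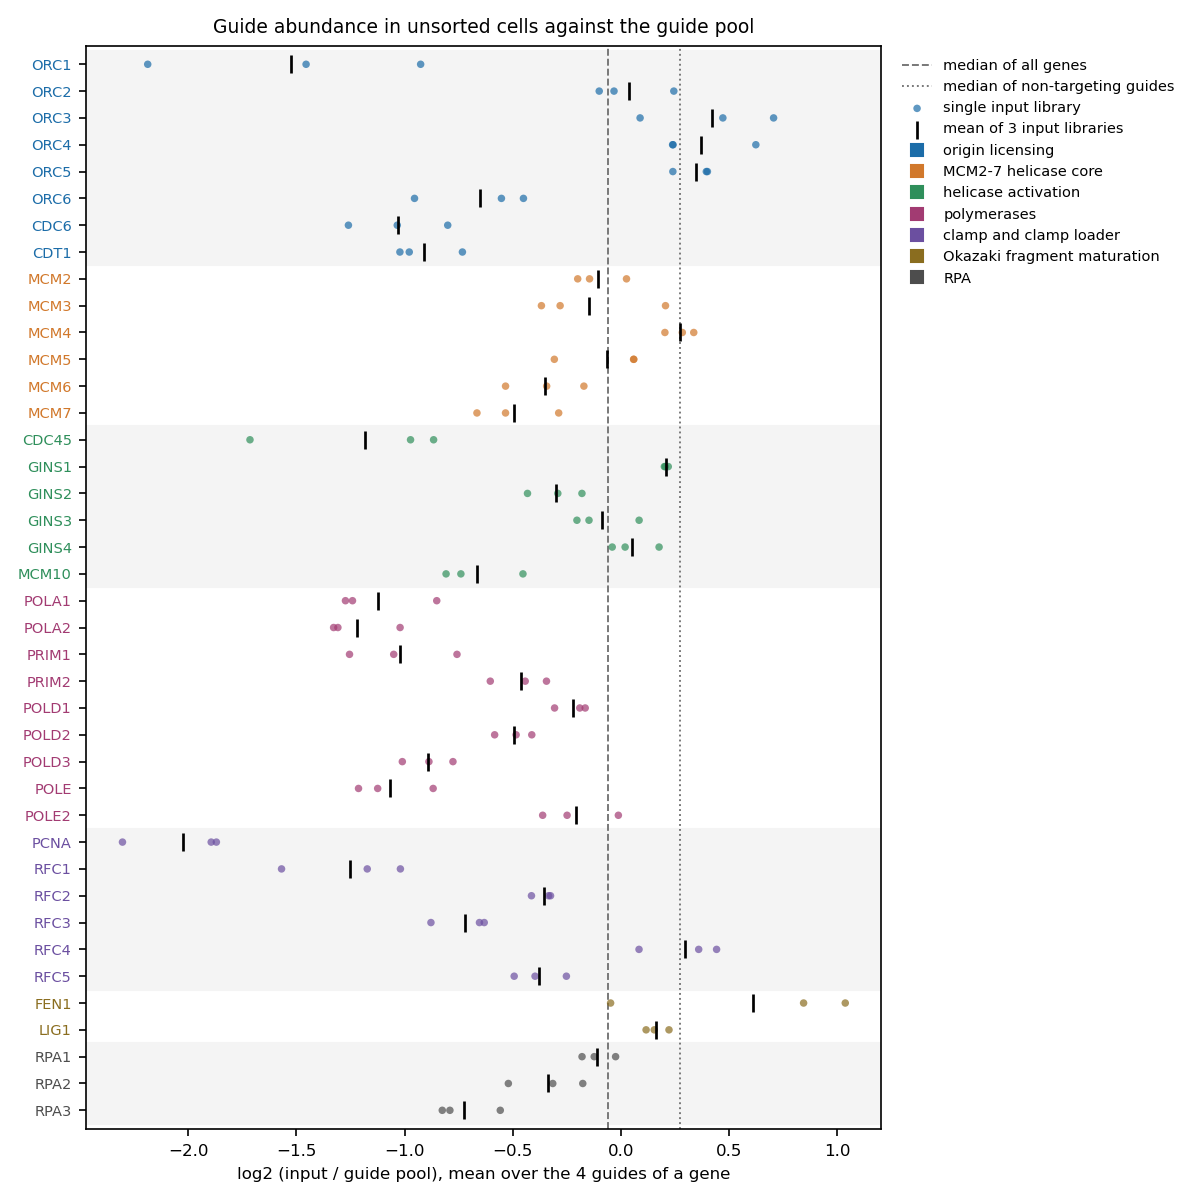
Log2 ratio of input over guide pool for the 40 genes, as the mean over the 4 guides of each gene. Each point is 1 of the 3 input libraries, the black bar is their mean, the dashed line is the median of all genes (-0.06) and the dotted line the median of non-targeting guides (0.27). All 9 polymerase and primase genes lie below 0, as do 11034 of all 19112 genes, and PCNA and ORC1 lie farthest to the left.

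Among polymerase and primase subunits the median was -0.89, and 5 of the 9 fell. Relative to all genes that median was -0.83, the lowest of the groups, but with the median over guides in place of the mean it was -0.53 and the clamp and its loader were lowest at -0.56. All 9 had a log2 ratio below 0, as had 11034 of all 19112 genes. POLA2, the regulatory subunit of polymerase α, was lowest, with a level (geometric mean of normalised counts over its guides) of 356 in the pool and 175, 143 and 141 in the 3 input libraries. All 3 input libraries were well below the pool and close to each other, giving a log2 ratio of -1.22 ± 0.22 (SE, n = 3; limma adjusted p = 0.00247). POLA1, the catalytic subunit of the same enzyme, stood at -1.12 ± 0.32 (adjusted p = 0.0446), and that call was lost without input library 2 (adjusted p = 0.152). PRIM1, the small catalytic subunit of primase, fell by 1.02 on the log2 scale (limma adjusted p = 0.00269). Its partner PRIM2 was at -0.46 and did not pass (adjusted p = 0.174). POLE, the catalytic subunit of polymerase ε, was just inside the threshold with -1.07 ± 0.32 (adjusted p = 0.0499), and it was outside without input library 2 (0.175) or input library 3 (0.0641). POLD3, an accessory subunit of polymerase δ, fell by 0.89 (adjusted p = 0.00962). The catalytic subunit of that enzyme, POLD1, was at -0.22 (adjusted p = 0.701) and its subunit POLD2 at -0.49 (0.328). POLE2, the second subunit of polymerase ε, was highest in the group, with a level of 328 in the pool and 276, 325 and 255 in input. Its libraries were all below the pool, the nearest almost level with it, at a log2 ratio of -0.21 ± 0.18.

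PCNA, the sliding clamp that tethers polymerases to DNA, was the lowest of the 40 genes and 19th lowest of all 19112. Its level was 214 in the pool and 57.0, 42.6 and 57.9 in input. Every input library was far below the pool, a 4.06-fold lower level (log2 ratio -2.02 ± 0.41, n = 3; limma adjusted p = 0.00601). The clamp loader subunits were spread more widely and none passed. RFC1, the large subunit, had a ratio of -1.25 ± 0.39 (adjusted p = 0.0598). RFC3 stood at -0.72 (0.0511), RFC5 at -0.38 and RFC2 at -0.36. RFC4 was the highest of the group, with a level of 165 in the pool and 175, 212 and 224 in input. All its input libraries were above the pool, at 0.30 ± 0.22 (adjusted p = 0.452). The group median was -0.55.

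Origin licensing genes were split, with 3 of 8 lower and 3 others above the pool in every input library. ORC1, the largest subunit of the origin recognition complex, was the second lowest of the 40 genes, with a level of 303 in the pool and 159, 109.9 and 65.8 in input. No input library reached the pool, but they differed 2.42-fold among themselves, and the log2 ratio was -1.52 ± 0.34 (adjusted p = 0.0108). CDC6, the ATPase that joins ORC to load the helicase, fell by 1.03 (adjusted p = 0.0185), a call lost without input library 2 (0.0793). CDT1, which brings the MCM ring to the origin, fell by 0.91 with an SE of 0.15 (adjusted p = 0.00199). ORC6 was at -0.65 (adjusted p = 0.0688) and ORC2 at 0.04. ORC3, ORC4 and ORC5, core subunits of the same complex, stood at 0.42, 0.37 and 0.35. ORC3 was the highest of the group, with 178 in the pool and 189.7, 248 and 291 in input, so that its 3 input libraries all lay above the pool (adjusted p = 0.269). The difference between ORC1 and these 3 subunits was not tested as such.

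In helicase activation, CDC45, a core part of the active helicase, fell by 1.18 with an SE of 0.26 (adjusted p = 0.00948). Its level was 381 in the pool and 209, 194 and 116 in input, with the third input library apart from the other two. That library was also the lowest for ORC1 and POLA2. Among the other genes that fell it was the highest for CDC6, POLA1, POLD3 and PCNA, and in between for CDT1, PRIM1 and POLE. MCM10, which helps to activate the loaded helicase, stood just outside the threshold at -0.67 ± 0.20 (adjusted p = 0.05, above the threshold before rounding). The 4 GINS subunits were near the pool, with GINS2 at -0.30, GINS3 at -0.09, GINS4 at 0.05 and GINS1 at 0.21. GINS1, the highest, had 201 in the pool and 231, 232 and 234 in input, 3 values that hardly differed (SE of the ratio 0.19, adjusted p = 0.557).

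None of the 6 MCM2-7 subunits passed, and their median of -0.13 was close to that of all genes. MCM7 was lowest, with a level of 365 in the pool and 299, 252 and 229.9 in input. All 3 were below the pool, at -0.50 ± 0.18 (adjusted p = 0.11). MCM6 stood at -0.35, MCM3 at -0.15, MCM2 at -0.11 and MCM5 at -0.06. MCM4 was highest, with 131 in the pool and 150.5, 165 and 159 in input, all above it, at 0.27 ± 0.24 (adjusted p = 0.539).

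RPA, which coats single-stranded DNA, had 0 of 3 subunits past the threshold. RPA3, the smallest subunit, was lowest, with 197 in the pool and 114, 111 and 134 in input (-0.72 ± 0.26, adjusted p = 0.107). RPA1, which binds DNA most tightly, was the highest at -0.11 ± 0.15, with 373 in the pool and 366, 329 and 342 in input. RPA2 stood at -0.34 (adjusted p = 0.427). FEN1, the flap nuclease of Okazaki fragments, had 74.2 in the pool and 71.8, 134 and 153 in input (0.61 ± 0.38, adjusted p = 0.355), but its ratio was 0.09 when guides with fewer than 200 pool reads, and with them guide 1, were left out. LIG1, the ligase that seals those fragments, had 189 in the pool and 204, 220.1 and 209.9 in input (0.16 ± 0.20). All input libraries of LIG1 and 2 of 3 of FEN1 were above the pool, and neither gene passed the test.

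Guides of the same gene often disagreed. Over single guides, 81 of the 160 (50.6%) were below the pool in all 3 input libraries, against 34.2% of all targeting guides. In 6 genes (15%), CDT1, CDC45, POLA1, POLA2, PCNA and RFC3, each of the 4 guides was below the pool in all 3 input libraries, which held for 2.46% of all genes. By the test over single guides, 5 of 160 fell (CDT1 guide 4, ORC6 guide 1, POLA1 guide 3, POLA2 guide 2 and PRIM1 guide 1), against 1.26% of all guides, and 1 rose (RPA2 guide 4, 1.31 ± 0.31, limma adjusted p = 0.0438), against 0.565% of all guides. These guides were named after their values were seen. The 1 guide of 160 that rose is near the share of all guides. RPA2 guide 4 cut at 76.2% of the coding sequence, the farthest along of all member guides, and the other 3 RPA2 guides stood at -0.76, -1.02 and -0.88. Whether the cut position bears on its ratio was not tested. The range between the highest and lowest guide of a gene had a median of 1.26 on the log2 scale.

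**Figure D2:**
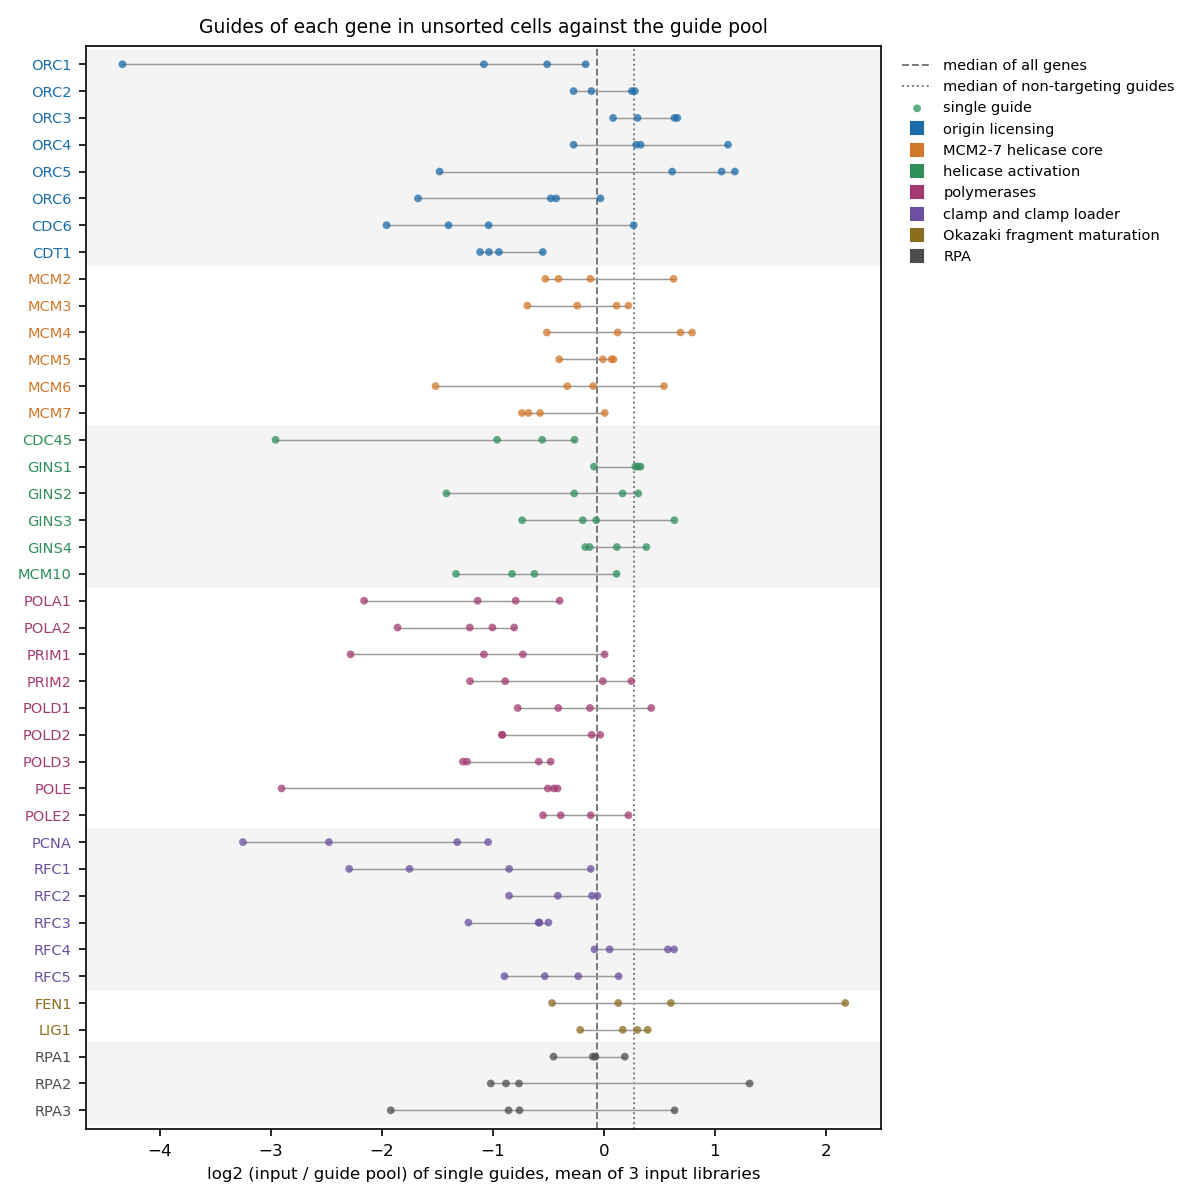
Log2 ratio of input over guide pool for each of the 160 guides, as the mean of 3 input libraries. Each point is a guide, grey lines join the lowest and highest guide of a gene, and the dashed and dotted lines are the medians of all genes and of non-targeting guides. The 4 CDT1 guides lie between -1.11 and -0.55, whereas ORC1 spans -4.34 to -0.16.

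PCNA, whose guides were lowest as a gene, had 4 guides that all moved down. PCNA guide 2, in the first exon, had a normalised count of 159 in the pool and 21.4, 8.75 and 20.8 in input. PCNA guide 1, also in exon 1, had 150 in the pool and 18.1, 44.6 and 21.7 in input. Their ratios were -3.25 and -2.48, while guides 3 and 4 stood at -1.04 and -1.32. No single PCNA guide passed the test over guides (lowest adjusted p = 0.0616).

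ORC1 rested largely on a single guide. ORC1 guide 4, in exon 10, had 282 in the pool and 59.2, 15.8 and 1.73 in input, a log2 ratio of -4.34 ± 1.22 (adjusted p = 0.0701). The other 3 stood at -0.16, -1.08 and -0.51 for guides 1, 2 and 3. With the median over guides in place of the mean, ORC1 was still called lower. CDC45 had the same shape. CDC45 guide 2 had 162 in the pool and 43.6, 32.4 and 5.20 in input (ratio -2.96), and guides 1, 3 and 4 stood at -0.26, -0.55 and -0.96.

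ORC5 guides went in opposite directions. ORC5 guide 1, in exon 3, had 233 in the pool and 96.2, 90.2 and 65.9 in input, a ratio of -1.48. Guides 2, 3 and 4, in exons 5, 6 and 7, stood at 0.62, 1.06 and 1.18. The gene mean of 0.35 lay between guide 1 and the others. No single ORC5 guide passed the test over guides (lowest adjusted p = 0.0624). RFC1 guides 1 and 3 stood at -2.29 and -1.75 from 122 and 93.4 in the pool, and guides 2 and 4 at -0.12 and -0.85.

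Whether loss of replication genes raised the reporter was asked by setting sorted libraries, from cells with high GFP, against input. None of the 40 genes was enriched in sorted cells by RRA, against 0.314% of all genes (60 called), and none was depleted, against 0.00523% (1 called). At an unadjusted p below 0.05, RRA named 2 in the enriched direction (MCM7 and MCM3) and 3 in the depleted direction (MCM10, POLE and ORC4), against 5.47% and 5.53% of all genes, so both counts were near the background. Limma on gene means called none, against 0.0157% of all genes (3 called). At an unadjusted p below 0.05 it had 1 of the 40 higher and 7 lower, against 1.96% and 13.9% of all genes. EdgeR called none, against 0.272% of all genes (52 called), and DESeq2 called MCM7 and FEN1 higher and MCM10 lower, against 2.54% of all genes higher (486) and 0.958% lower (183). Both comparisons use the same input libraries, so their ratios for a gene are not independent and are set side by side only.

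All genes together had a median log2 ratio of sorted over input of -0.56, and non-targeting guides -0.08. Guides at 0 were far more frequent in sorted libraries, and a guide at 0 pulls down the mean over 4 guides. Of the 160 member guides, 11.9%, 13.8% and 13.8% were at 0 in sorted libraries 1, 2 and 3, against 7.88%, 10.9% and 7.33% of all targeting guides, and none was at 0 in input. The median of the 40 genes lay 0.28 below that of all genes (-0.28), with 27 genes below the all-gene median and 13 above. By sorted library this difference was -0.39, -0.22 and -0.60. It was -0.0485 when guides with a mean input under 200 were left out, and on summed reads -0.00671 by edgeR and -0.00604 by DESeq2. Leaving out those guides kept 35 genes and dropped POLA1, POLA2, POLD2, RFC1 and RFC3. The dropped genes all lay below the all-gene median in the main setting, so the gene set was not the same.

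**Figure D3:**
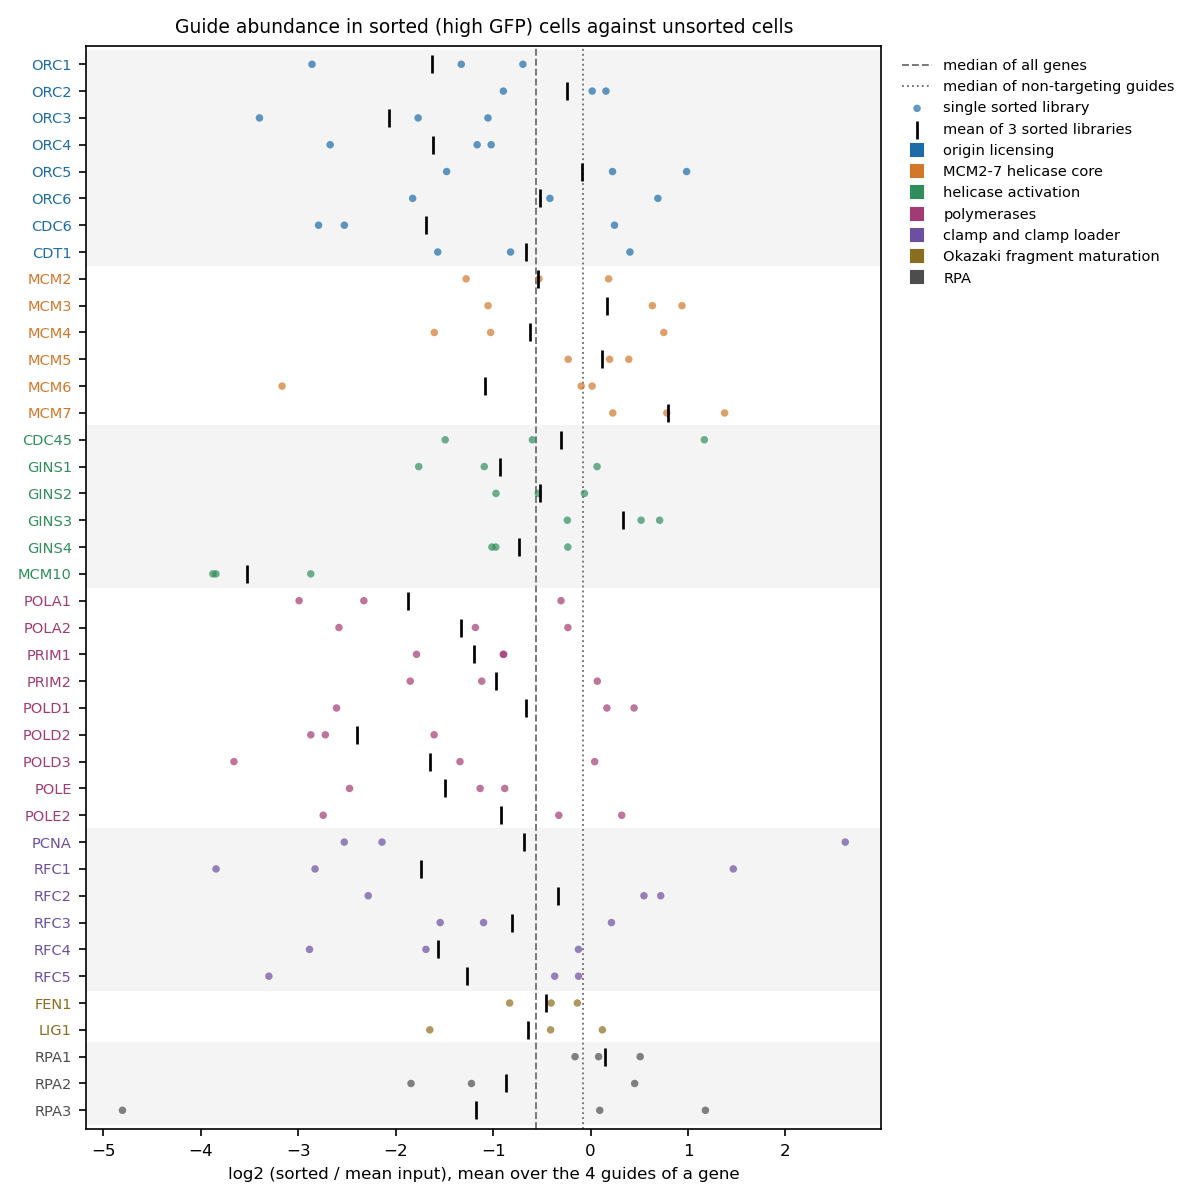
Log2 ratio of sorted over mean input for the 40 genes, as the mean over the 4 guides of each gene. Each point is 1 of the 3 sorted libraries, the black bar is their mean, the dashed line is the median of all genes (-0.56) and the dotted line that of non-targeting guides (-0.08). MCM7 has its 3 points above 0 and MCM10 no point above -2.87, while in 21 of the other 38 genes the highest sorted library was at least 4-fold above the lowest.

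MCM7 was the highest of the 40 genes in sorted cells. Its level was 299, 252 and 229.9 in input and 446, 673 and 303 in sorted libraries. All 3 sorted libraries were above all 3 input libraries, the lowest of them by little, and the change was 1.74-fold (log2 0.80 ± 0.34; RRA adjusted p = 0.601, limma adjusted p = 0.315). Its 4 guides all had a ratio above 0, from 0.62 to 0.89. MCM7 was the only member whose groups did not overlap in this direction, 2.50% of the 40 against 4.56% of all genes. On summed reads the log2 ratio was 0.81 by DESeq2 and by edgeR, with an adjusted p of 0.0422 by DESeq2 and 0.438 by edgeR.

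MCM10 was the lowest of the 40 and 42nd lowest of all 19112 genes. Its level was 189, 198 and 242 in input and 13.3, 13.6 and 27.6 in sorted libraries. Sorted and input did not overlap, at a log2 ratio of -3.53 ± 0.58 (limma adjusted p = 0.140, RRA adjusted p = 0.685). MCM10 guide 2 had 124, 149.7 and 179.6 in input and 0, 0 and 14.4 in sorted libraries, guide 3 was at 0 in sorted libraries 2 and 3 with 404 in library 1, and guide 1 was at 0 in library 1 with 489 in library 3. Thus 5 of its 12 sorted values were 0, and different guides were lost in different libraries. DESeq2 gave a smaller difference of -0.99 (adjusted p = 0.0115), and limma called MCM10 lower without sorted library 1 (adjusted p = 0.0397), as it did POLA1 and RFC1 and 1008 genes in all.

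**Figure D4:**
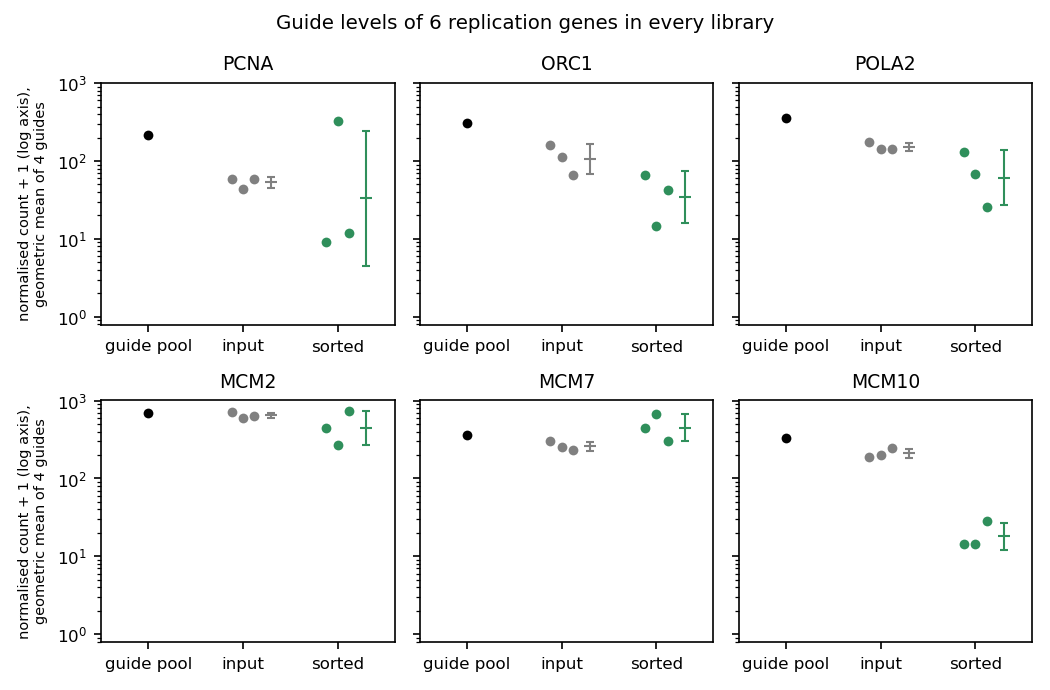
Guide levels of PCNA, ORC1, POLA2, MCM2, MCM7 and MCM10 in the guide pool, 3 input and 3 sorted libraries, as the geometric mean over 4 guides of the normalised count + 1 on a log axis. Points are libraries, and the bar beside them is their mean ± SD on the log scale. PCNA in sorted cells runs from 8.20 to 323, while MCM10 is low in all 3 sorted libraries.

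In 11 genes (27.5%) all sorted libraries were below all input libraries, against 22.9% of all genes, a share near the background. These were ORC1, ORC3, ORC4, GINS4, MCM10, POLA1, POLA2, PRIM1, POLD2, POLE and RFC5. In the other 28 genes sorted and input overlapped.

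Medians of the functional groups in sorted against input, given below relative to the median of all genes, moved with the way guides were combined and with single libraries. On reads summed over guides, edgeR gave -0.13 for origin licensing, -0.08 for polymerases, -0.00336 for MCM2-7, 0.00118 for RPA, 0.06 for helicase activation, 0.09 for the clamp and its loader and 0.24 for Okazaki fragment maturation. The order of the groups by the mean over guides was therefore not kept.

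For polymerase and primase genes the median was -0.77 relative to all genes, or -0.43 with the median over guides, and all 9 were below the all-gene median. POLD2 was lowest, with 113, 107 and 100.3 in input and 15.3, 34.4 and 13.7 in sorted libraries. Its groups did not overlap, at -2.40 ± 0.60 (RRA adjusted p = 1, limma adjusted p = 0.204). On summed reads the POLD2 ratio was -0.09 by edgeR and by DESeq2, and 4 of its sorted guide values were 0. POLD1 was highest, with 103, 112 and 114 in input and 149.6, 123 and 17.1 in sorted, so that 2 sorted libraries were above input and the third far below (-0.66 ± 0.86). The others ran from -1.87 for POLA1 through -1.65 for POLD3, -1.50 for POLE, -1.33 for POLA2, -1.19 for PRIM1 and -0.97 for PRIM2 to -0.92 for POLE2. By edgeR on summed reads the same genes stood, in that order, at -0.05, -0.02, -0.54, 0.12, -0.05, -0.23 and -0.03. The share of the group's 36 guides at 0 was 11.1%, 22.2% and 27.8% in sorted libraries 1, 2 and 3. The part of these zeros in the group median was not tested. POLE guide 4 was at 0 in all 3 sorted libraries after 23.9, 8.75 and 11.3 in input, 1 of 2 member guides called lower in sorted cells (limma adjusted p = 0.0376; 0.591% of all guides), with 0 called higher (0.0917% of all guides). The other, ORC4 guide 3, was at 0 in all 3 after 145, 82.3 and 77.2 in input.

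Origin licensing genes had a median of -0.58 relative to all genes, or -0.19 without sorted library 1. ORC3 was lowest, with 189.7, 248 and 291 in input and 115, 21.8 and 69.5 in sorted, all below input (-2.07 ± 0.69, limma adjusted p = 0.234). ORC5 was highest at -0.09 ± 0.65, with 165, 183 and 184 in input and 207, 63.0 and 352 in sorted libraries on both sides of them. CDC6 stood at -1.69, ORC1 at -1.63, ORC4 at -1.62, CDT1 at -0.66, ORC6 at -0.52 and ORC2 at -0.24. ORC3 and ORC4, which were above the pool in every input library, were among the members with sorted levels wholly below input. The other members above the pool in every input library, ORC5, MCM4, GINS1, RFC4 and LIG1, had overlapping sorted and input levels. For ORC1, every input library was below the pool and every sorted library below input. On summed reads, edgeR and DESeq2 each gave -0.76 for ORC3, 0.20 for ORC4 and -0.19 for ORC1. Guides 1 to 4 of ORC4 stood at -0.69, 0.45, -6.62 and 0.39.

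MCM2-7 genes had a median 0.35 above that of all genes, or 0.20 when guides with a mean input under 200 were left out. MCM6 was lowest, with 208, 234 and 182 in input and 209, 194 and 22.2 in sorted, and its ratio of -1.08 ± 0.87 came from the third sorted library. MCM3 (0.17) and MCM5 (0.12) were above 0, and MCM2 (-0.54) and MCM4 (-0.63) below. The share of their 24 guides at 0 was 0% in sorted libraries 1 and 2 and 4.17% in library 3, the lowest of the groups in each of libraries 1 and 2.

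For helicase activation the median was -0.07 relative to all genes, and 0.02 with the median over guides. GINS3 was highest, with 196, 239.9 and 204 in input and 180.1, 305 and 348 in sorted, which overlapped (0.33 ± 0.38). CDC45 stood at -0.31, GINS2 at -0.52, GINS4 at -0.74 and GINS1 at -0.93.

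For the clamp and its loader the median was -0.48 relative to all genes, and 5 of the 6 genes lay below the all-gene median. It was -0.01 without sorted library 1 and -1.03 with the median over guides. When guides with a mean input under 200 were left out it was -0.02, over 4 genes only, since RFC1 and RFC3 had no guide left. PCNA had 57.0, 42.6 and 57.9 in input and 8.20, 323 and 11.0 in sorted, a 39.5-fold range between sorted libraries. Sorted library 2 was above input and the other two below it, with a mean ratio of -0.68 ± 1.29. RFC1 was lowest, with 76.7, 68.9 and 52.1 in input and 181, 8.31 and 3.61 in sorted (-1.73 ± 1.28). RFC2 was highest, with 314, 334 and 331 in input and 477, 538 and 66.3 in sorted (-0.34 ± 0.75). RFC4 stood at -1.57, RFC5 at -1.26 and RFC3 at -0.81.

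FEN1 had 71.8, 134 and 153 in input and 103.6, 63.6 and 85.8 in sorted (-0.46 ± 0.57). Its guide 1 was at 0 in all 3 sorted libraries, and its guide 2 had 380, 586 and 578 in input and 639, 1264 and 1046 in sorted. LIG1 had 204, 220.1 and 209.9 in input and 159, 230.0 and 66.7 in sorted (-0.65 ± 0.55). For RPA the median was -0.31 relative to all genes, but it ran from -0.97 without sorted library 3 to 0.72 without sorted library 2, and was 0.34 when guides with a mean input under 200 were left out. RPA3 was lowest, with 114, 111 and 134 in input and 127, 3.3 and 271 in sorted, and its ratio of -1.18 ± 1.41 came from the second sorted library. RPA1 was highest at 0.14 ± 0.26, with 366, 329 and 342 in input and 366, 309 and 492 in sorted. RPA2 stood at -0.87.

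Other genes of the pathway were read from a list of 36 that fire origins, protect forks, supply nucleotides or assemble chromatin behind the fork. In input cells 5 of the 36 fell and 0 rose, against 4.41% and 1.25% of all genes, and their median log2 ratio of input over pool was -0.16. TICRR and DONSON, which help to assemble the active helicase, stood at -1.52 and -1.36, and CDC7, the kinase that activates the MCM ring, at -1.32. The other two, named after their values were seen, were the nuclease-helicase DNA2 (-1.15) and CHAF1A (-0.88), a subunit of the chromatin assembly factor. In sorted against input 0 of the 36 were called by RRA in either direction (unadjusted p below 0.05 for 2 enriched and 5 depleted, against 5.47% and 5.53% of all genes), and their median lay 0.19 below that of all genes (-0.19).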

How the data were processed

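Guide counts came from 3 input libraries, 3 sorted libraries and 1 guide pool library. By the authors' processing notes, reads were checked with FastQC 0.11.9, trimmed with cutadapt 3.3 and analysed with MAGeCK, whose version the notes do not give. The authors deposited normalised counts per guide, 3 values joined by slashes, which are reads times 1 factor per library, and a raw count per guide for the pool. Deposited fold changes, p-values and ranks of the authors' own comparison were not used. Low values stepped by 1 read, which gave back whole reads (tolerance 0.1), at a median of 263 to 321 reads per guide in cell libraries and 396 in the pool. PCR reads are not independent molecules.

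Values were log2(normalised count + 1), with pool counts scaled by 1 factor that set the median guide ratio to 1. Genes (19112, by the mean over guides) and guides (77388 in sorted against input, 77400 in input against pool) were tested with limma 3.58.1 (eBayes with trend, R 4.3.3). Sorted against input was called by RRA, run in each direction on one-sided guide p-values with alpha 0.25 and an exact null. Both used Benjamini-Hochberg adjustment over all genes or guides and a threshold of 0.05. A level is the geometric mean over a gene's guides of the normalised count + 1, less 1. Scripts were tested on simulated data. Alternatives were a pseudocount of 10, minimum counts of 200, scaling to the 1000 non-targeting guides or to equal totals, the median over guides, edgeR 4.0.16 and DESeq2 1.42.0 on reads summed per gene, leaving out each library, and the place of a value as a block.

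Libraries are biological replicates by the labels and, by the study, cells passaged at different times. Members, gene lists and tests were chosen with earlier results of these data known. Every member is named. Library values are given for the lowest and highest member of each group in each comparison, and guides for the 3 genes with the lowest ratio of input over pool and the 3 with the widest range between guides.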

Additional observations from a re-analysis of the deposited data

How the results depend on the processing

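For input against the guide pool, 385 of 440 values of single genes over the alternatives kept their side of the threshold. Another 34 passed newly, 21 no longer passed and no called value turned. The sign differed from the main setting in 12 of the 440. ORC1, CDT1, CDC45, POLA2, PRIM1, POLD3 and PCNA were called lower in 10 of 11 alternatives, CDC6 in 9, POLA1 in 7 and POLE in 3. Among members not called in the main setting, MCM10 was lower in 6, RFC1 and RFC3 in 5 each, ORC6 and RPA3 in 3 each, and the rest in fewer or none. The count of 10 lower became 22 with scaling to non-targeting guides, where 5318 of all genes were lower and the median of all genes moved from -0.06 to -0.33. It became 0 with RRA, 13 with edgeR (1034 of all genes) and 12 with DESeq2 (1037 of all genes). With a library left out it ran from 7 to 17, at 406 to 2748 of all genes. The count higher was 1 with at least 200 pool reads, namely MCM4, whose value then rested on its guide 3 alone. The count higher ran from 0 to 2 with a library left out, ORC3 and FEN1 being higher without input library 1. Group medians less the median of all genes moved with the median over guides to -0.20 for MCM2-7, -0.28 for helicase activation, -0.53 for polymerases and 0.0286 for Okazaki fragment maturation. On summed reads by edgeR and DESeq2 they moved to -0.56 for polymerases, -0.11 for RPA and -0.23 for all 40. The causes were not tested. For sorted against input, DESeq2 called 2 enriched (MCM7 and FEN1, the latter at 0.64 against -0.46 by the mean over guides) and 1 depleted (MCM10), edgeR on summed reads called 0, and RRA called 0 in either direction under every alternative it was run with, each library left out included. The median of the members less that of all genes became -0.0485 with a mean input of at least 200, which left 35 of the 40 genes. It became -0.00671 with edgeR and -0.00604 with DESeq2, and ran from -0.48 to -0.13 with a library left out (-0.48 without sorted library 2). For origin licensing it became -0.25, -0.10 (median over guides), -0.13 and -0.13, and ran from -0.63 to -0.19 (-0.19 without sorted library 1). With the place of a value as a replicate block, RRA called 0 members in either direction, and the median of -0.28 cannot move, since a block leaves the mean difference of equal groups as it is. The labels' replicate numbers are not carried by the values, so the places are not shown to pair libraries. Guides at few counts, above all in sorted cells, limit the ratios.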
